A study of Mus musculus with 16 samples.

Results

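The genes described here are 44 genes of the cell cycle and of DNA replication, chosen for their textbook roles in dividing cells and measured among 38355 genes in splenic B-cells of mice with and without microRNA-146a. There were 20 genes of G1/S control and DNA synthesis and 24 genes of mitosis. All 44 were found by their symbols, and 43 of them passed the filter on low values described below and were tested with 12507 genes in all. The one that did not pass was Gins2, a subunit of the GINS complex of the replicative helicase, which stayed between 0.0973 and 0.625 RPKM (reads per kilobase of gene, scaled to the mapped reads of the library, the unit of all levels here). The rule that chose the 44 genes rests on their roles and uses none of their values. However, the genes were chosen with earlier results of these data known.

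RNA was sequenced from 4 sorted subsets of spleen B-cells of C57BL/6 mice: transitional 1 (T1), transitional 2 (T2), marginal zone (MZ) and follicular (FO) cells. KO mice carried a deletion of miR-146a in every cell (Mir146a-/-), and WT mice were their wild-type counterparts. Each subset of each genotype had 2 libraries, 16 in all, and spleens of several mice were pooled for a sort, so that a library stands for a pool and a p-value measures the spread between such pools. T1 cells were gated as CD23-, AA4+, IgM high and CD21 low or negative; T2 cells as CD23+, AA4+, IgM high and CD21 low; MZ cells as CD23-, AA4-, IgM high and CD21 high; and FO cells as CD23+, AA4-, IgM low and CD21 intermediate. The transcripts of 3 of the 4 gate proteins followed these gates: Cd93, the gene of AA4, was at 26.6 to 36.4 RPKM for T1 libraries, 6.66 to 15.4 for T2, 0.29 to 0.36 for MZ and 1.17 to 2.55 for FO libraries, Fcer2a (CD23) was lowest in the MZ and T1 libraries, and Cr2 (CD21) was highest in the MZ libraries. With Ighm (IgM) included, the 4 transcripts summed to 29464 to 36116 RPKM in replicate 2 and 11287 to 16071 in replicate 1 of T1. They summed to 5390 to 5773 RPKM in T2, 5705 to 6693 in MZ and 4519 to 5092 in FO libraries. This sum thus differed between the T1 libraries and the T2 and MZ ones, all gated as IgM high. Neither the labels nor the methods give the age of the sorted mice.

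A cell that divides first licenses its replication origins in G1, when Cdc6 and Cdt1 load the MCM helicase onto DNA, and then makes nucleotides and copies its DNA in S phase, under genes that E2F factors switch on. The mitotic cyclins, the kinases Cdk1, Plk1 and Aurora, the kinetochore and the spindle motors follow in G2 and M, and their genes are repressed in resting cells through a short promoter element called the CHR, which binds the DREAM complex. T1 and T2 cells are recent arrivals from the bone marrow, FO cells are mostly resting and recirculate, and MZ cells are resident cells poised for a quick response. In RNA of whole sorted populations, more dividing cells and more RNA per dividing cell cannot be told apart.

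E2F motifs and the CHR were unevenly spread over the promoters of the DNA synthesis and the mitosis genes, and a few of these stretches are shown first. RefSeq promoters, from 250 bases before to 50 bases after a start on GRCm38.p6, matched 35 of the 44 genes; those without an entry were Ccne2, Mcm4, Gins2, Ccna2, Aurkb, Foxm1, Kif20a, Tpx2 and Stmn1. An E2F motif (TTTGGCGC, TTTCCCGC, TTTCGCGC or TTTGCCGC, either strand) was found in 7 of 17 DNA synthesis genes (41.2%), namely E2f2, Cdc6, Cdt1, Mcm3, Mcm5, Mcm6 and Mcm7, and in 1 of 18 mitosis genes (5.56%), Cdk1, against 4.87% of the 8118 tested genes with a promoter and 2.60% of all 27025 genes with one. A CHR (TTTGAA or TTCGAA, either strand, from 100 bases before to 50 after the start) was found in 14 of 18 mitosis genes (77.8%) and 2 of 17 DNA synthesis genes (11.8%), against 6.59% of the tested genes and 9.87% of all genes. All 14 of those mitosis promoters also held CCAAT (either strand, anywhere in the promoter), a pair found in 3.66% of the tested genes. The 5 lines below show E2F motifs of DNA synthesis genes in capitals, in 30 bases each, for genes whose values are given further on.
E2f2 (chr4:136172294-136172323, plus strand): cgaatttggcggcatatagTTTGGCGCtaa
Cdt1 (chr8:122568035-122568064, plus strand): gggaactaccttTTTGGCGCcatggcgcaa
Mcm5 (chr8:75109345-75109374, plus strand): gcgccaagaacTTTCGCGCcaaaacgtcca
Mcm6 (chr1:128359734-128359763, minus strand): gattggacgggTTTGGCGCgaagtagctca
Mcm7 (chr5:138171849-138171878, minus strand): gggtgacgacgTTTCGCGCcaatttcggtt

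The 6 lines that follow show a CHR of mitosis genes in capitals in the same way. They are 5 of the genes whose T1 replicates lay far apart, as described below, and Cenpa, whose T1 replicates differed least among the mitosis genes. The promoter of Cdk1 held a further CHR match, at -15 from the start, which is not shown.
Mki67 (chr7:135716460-135716489, minus strand): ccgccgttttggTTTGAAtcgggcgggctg
Top2a (chr11:99024195-99024224, minus strand): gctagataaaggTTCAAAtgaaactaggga
Kif11 (chr19:37376351-37376380, plus strand): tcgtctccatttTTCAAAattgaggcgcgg
Cdk1 (chr10:69352966-69352995, minus strand): ctgattggctccTTTGAAcgtctacgtgca
Bub1 (chr2:127831828-127831857, minus strand): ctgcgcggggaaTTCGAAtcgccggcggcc
Cenpa (chr5:30666890-30666919, plus strand): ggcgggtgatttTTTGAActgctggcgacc
A match of letters is a description of the promoter and shows no binding. E2f1, Tk1 and Nusap1, which are described below, held neither an E2F motif nor a CHR in these windows.

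The libraries held 9003343 to 26386684 reads on genes, as recovered from the RPKM values. Differences are given on the scale of log2(RPKM + 0.5), which understates the change of low genes, and a gene was called at a limma adjusted p under 0.05 with a log2 difference beyond 1 in size. Between the 4 subsets few members were called. E2f2 was lower in T2 than in T1 cells and lower again in MZ cells in both genotypes, Tk1 was higher and Cenpa lower in MZ than in T2 cells, and E2f1 and Nusap1 were higher in MZ than in FO cells. Between KO and WT no member was called in any subset. The largest differences of all lay between the replicates of the T1 subset, and most mitosis genes shared them, so they are described before the comparisons.

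**Figure D1:**
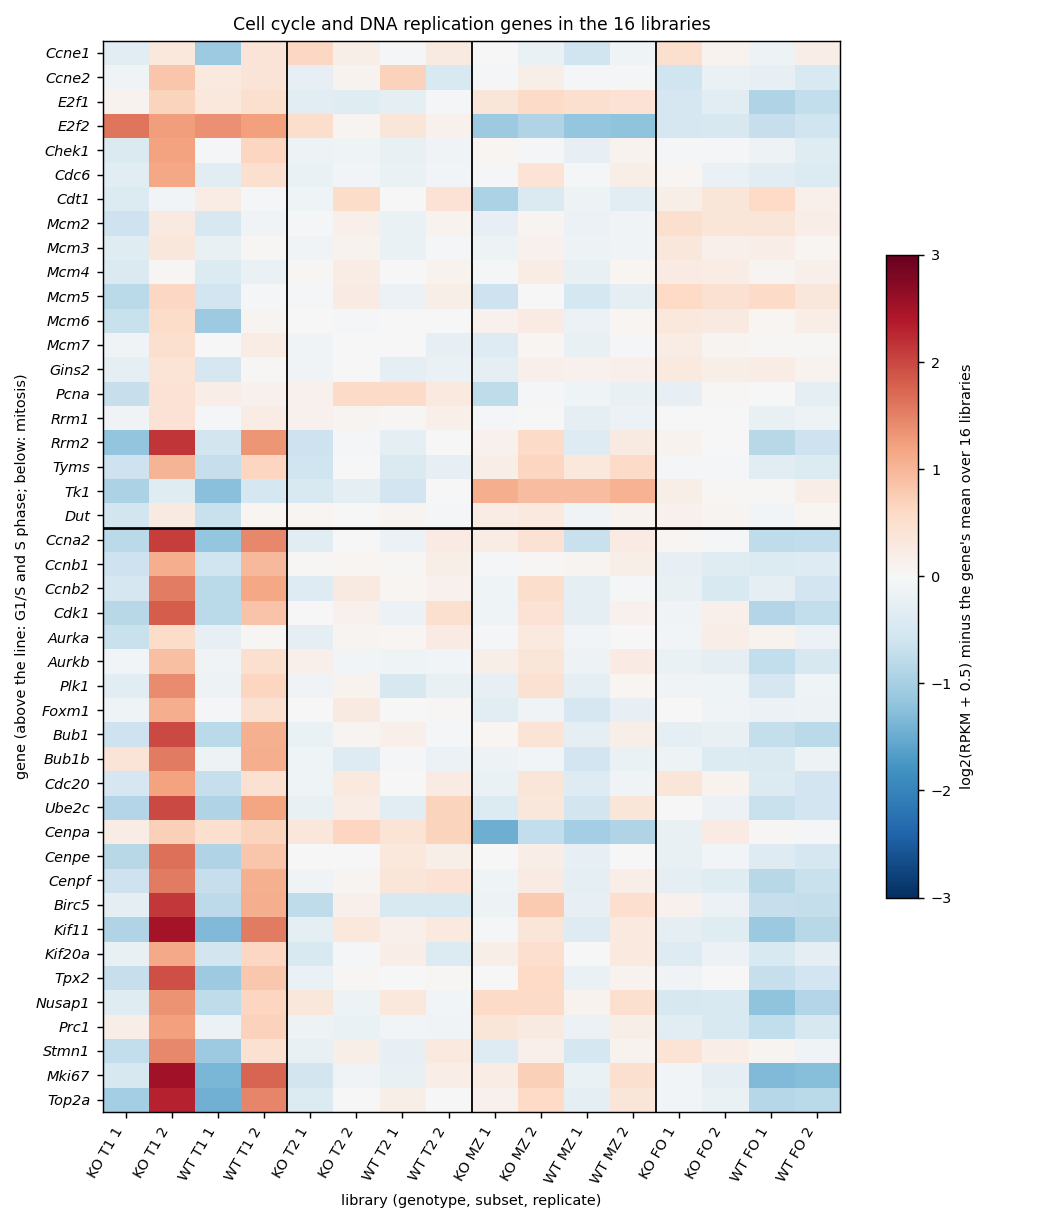
Level of each of the 44 genes in the 16 libraries, as log2(RPKM + 0.5) minus the mean of the gene over the libraries, in rows ordered by role and in columns KO and then WT within T1, T2, MZ and FO. The 2 columns of T1 replicate 2 stand out in red over the mitosis rows, where KO T1 replicate 2 is the highest of the 16 libraries for 24 of 24 genes.

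Replicate 2 of the T1 subset held more message of nearly every member than replicate 1, in both genotypes. It was higher in both genotypes for 40 of the 43 tested members, against 27.2% of all tested genes, and higher by over 1 on the log2 scale in both for 21 of them, against 3.05% of all tested genes. Chek1, Cdc6, Ccnb1, Cdk1, Bub1, Ube2c, Cenpf and Birc5 passed the filter only through these T1 replicate 2 libraries, so that a higher level there was in part a condition of their being tested. Of the other 35 members 32 were higher in both genotypes and 15 by over 1, against 26.8% and 2.71% of the 12408 genes that pass without those libraries. All 24 mitosis genes were higher in both genotypes and 18 of the 24 by over 1 (18 and 12 of the 18 that pass without those libraries). Of the 19 tested DNA synthesis genes 16 were higher and 3 by over 1, namely Rrm2, Tyms and Mcm6. The median difference between the T1 replicates was 2.11 in KO and 1.62 in WT cells for mitosis genes and 0.83 in KO and 0.36 in WT cells for DNA synthesis genes, and -0.05 and 0.01 over all tested genes. No member differed by over 1 in both genotypes between the replicates of T2, MZ or FO cells.

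Mki67, the Ki-67 protein that coats mitotic chromosomes and marks dividing cells, was at 25.4 and 2.75 RPKM in replicates 2 and 1 of KO T1 cells and at 14.7 and 1.25 in replicates 2 and 1 of WT T1 cells. In the 12 T2, MZ and FO libraries it lay between 1.31 and 6.90 RPKM, so the 2 T1 replicate 2 libraries were the highest of the 16 and the 2 T1 replicate 1 libraries lay within or under the range of the rest. Top2a, the topoisomerase that untangles sister chromatids, was at 16.3 and 1.17 RPKM in KO T1 replicates 2 and 1 and at 8.83 and 0.743 in WT T1 replicates 2 and 1. Kif11, the motor that pushes spindle poles apart, was at 10.8 and 0.557 RPKM in KO T1 replicates 2 and 1 and at 5.37 and 0.298 in WT T1 replicates 2 and 1. For each of these 3 genes the KO pair of T1 libraries differed by 9.21- to 19.4-fold and the WT pair by 11.8- to 18-fold. Rrm2, the regulated subunit of ribonucleotide reductase that supplies deoxynucleotides, was at 14.9 and 1.03 RPKM in KO T1 replicates 2 and 1 and at 8.23 and 1.87 in WT T1 replicates 2 and 1. Here too replicate 2 was the higher library of each T1 pair. Rrm1, the other subunit of the same enzyme, was at 20.5 and 14 RPKM in KO and at 17.8 and 14.6 in WT T1 replicates 2 and 1, a ratio of 1.47 and 1.22.

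Other mitosis genes showed the same split of the T1 pairs at lower levels. Ccna2 (cyclin A2) was at 6.59 and 0.459 RPKM in KO T1 replicates 2 and 1 and 4.08 and 0.250 in WT T1 replicates 2 and 1. Cdk1, the kinase that cyclins A and B drive, rested on 171 and 5 reads in KO and on 73 and 6 reads in WT T1 replicates 2 and 1. The spindle checkpoint kinase Bub1, the ubiquitin-conjugating enzyme Ube2c of the anaphase-promoting complex, the kinetochore proteins Cenpe and Cenpf, Birc5 (survivin, of the chromosomal passenger complex) and the spindle assembly factor Tpx2 differed by 10.5- to 37.6-fold in KO and by 6.34- to 22.3-fold in WT cells. Ccnb1 and Ccnb2 (B-type cyclins), Cdc20 (activator of the anaphase-promoting complex), Stmn1 (stathmin, a microtubule destabilizer), Plk1 (Polo-like kinase), Nusap1 (spindle microtubule binding) and Kif20a (a cytokinesis motor) differed by 3.35- to 8.16-fold in KO and by 2.09- to 7.08-fold in WT cells. Among mitosis genes the smallest splits in KO cells were those of the Aurora kinases Aurka and Aurkb, the transcription factor Foxm1, Bub1b (BubR1), Prc1 (a cytokinesis protein) and Cenpa, at 1.42- to 3.16-fold in KO and 1.15- to 2.68-fold in WT cells.

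Most licensing genes moved less than most mitosis genes, and E2f2 moved the other way. Mcm2, Mcm3, Mcm4 and Mcm7, subunits of the helicase, were 1.39- to 1.89-fold higher in KO T1 replicate 2 and 1.17- to 1.30-fold higher in WT T1 replicate 2. The subunits Mcm5 and Mcm6 moved more, at 2.80- and 2.41-fold in KO and 1.47- and 2.32-fold in WT T1 replicate 2. Cdc6 and the checkpoint kinase Chek1 were 5.91- and 6.41-fold higher in KO and 3.04- and 2.21-fold higher in WT T1 replicate 2, at levels of no more than 2.1 RPKM. Tyms (thymidylate synthase) was at 1.76 and 0.221 RPKM in KO and 1.23 and 0.183 in WT T1 replicates 2 and 1, while Dut, the dUTPase of the same pathway, differed by 1.85-fold in KO and 1.72-fold in WT cells. E2f2 was lower in replicate 2 in both genotypes, at 57.7 against 73.4 RPKM in KO and 57.0 against 62.8 in WT cells. Cdt1 and Pcna (the sliding clamp of DNA polymerase) were higher in replicate 2 in KO and lower in WT cells.

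**Figure D2:**
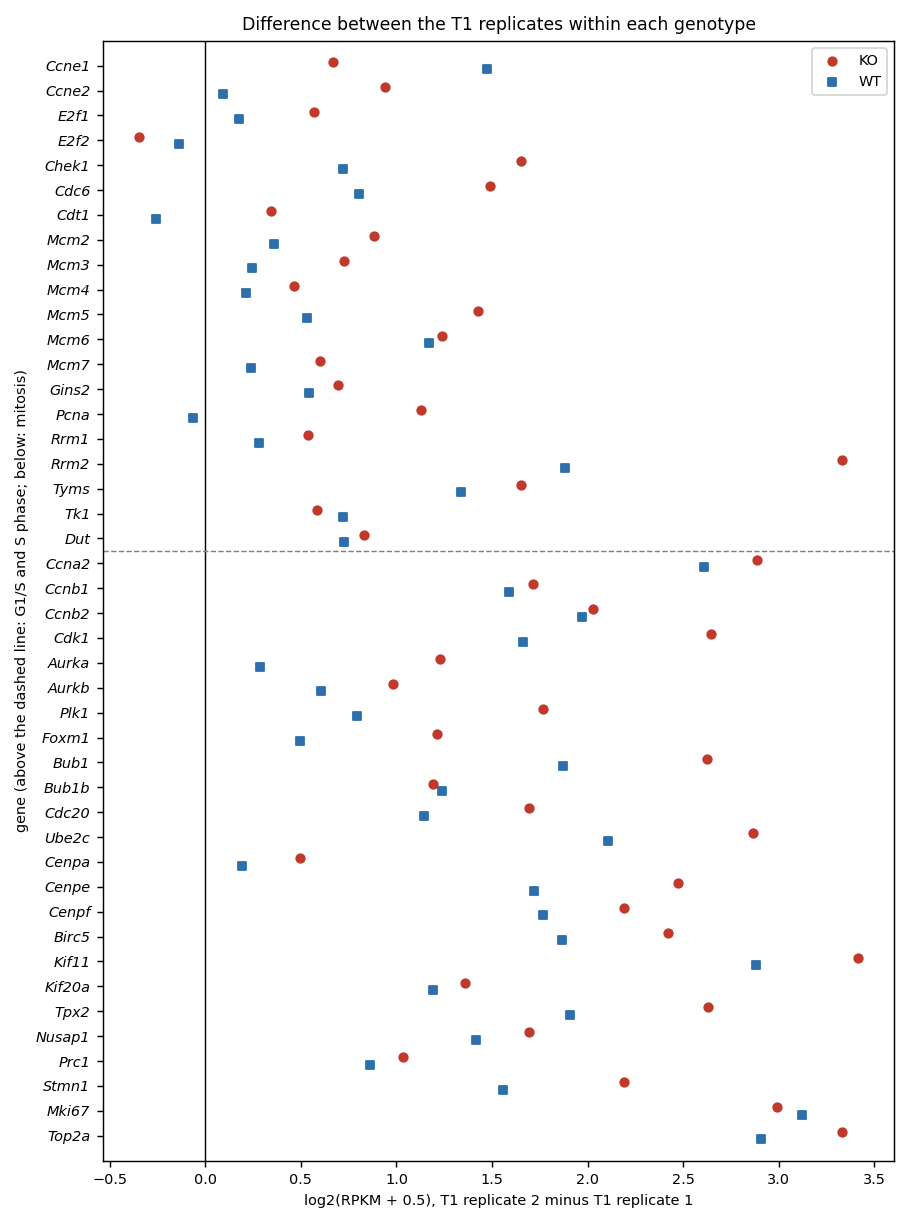
Difference between T1 replicate 2 and T1 replicate 1 for each of the 44 genes, in log2(RPKM + 0.5), with KO as red circles and WT as blue squares. All 24 mitosis genes, under the dashed line, lie to the right of 0 in both genotypes, up to 3.42 for Kif11 in KO, while E2f2 is the one gene left of 0 in both.

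Transcripts of some other cells moved with this split, and those of others did not. Of 7 plasmablast markers listed for the check, 7 were higher in T1 replicate 2 in KO and 6 in WT cells, the exception being Irf4. The summed level of the list was 3415 to 4517 RPKM in the T1 replicate 2 libraries and 811 to 1428 in the T1 replicate 1 libraries, against 227 to 342 in T2. Its defining markers were well above 0 in T1 replicate 2: Igj, the J chain of secreted antibody, was at 3876 and 1148 RPKM in KO and 2799 and 428 in WT T1 replicates 2 and 1. The 8 T cell markers were all higher in T1 replicate 2 in both genotypes (summed 23.3 to 24.4 against 6.78 to 9.62 RPKM, and 27.4 to 29.4 in FO), as were the 9 macrophage and monocyte markers (27.9 to 65.1 against 10.8 to 11.4, and 41.3 to 88.2 in T2). Of 4 B1 cell markers, 4 in KO and 3 in WT cells were higher. The summed pro-B and pre-B markers were lower in T1 replicate 2, at 4.93 to 5.56 against 6.11 to 7.03 RPKM in T1 replicate 1. The summed erythroid markers (4.80 to 9.07 against 3.54 to 5.01) and the summed myeloid progenitor and neutrophil markers (4.71 to 55.3 against 4.80 to 9.87) overlapped. Of the germinal center B-cell markers, Rgs13 was at 4.13 and 1.14 RPKM in KO and 2.67 and 1.12 in WT T1 replicates 2 and 1, and S1pr2 and Mybl1 were also higher in replicate 2 in both genotypes. Gcsam and Fas were higher in replicate 2 in KO and lower in WT cells, Bcl6 was lower in both, and the sum of the list was 17.3 to 21.2 RPKM in T1 replicate 2 and 20 to 20.8 in T1 replicate 1. None of the 6 pan-B-cell markers was higher in replicate 2 in either genotype, and the 10 genes with the highest RPKM held 22.9% to 25.7% of the summed RPKM in T1 replicate 2 and 13.1% to 15.5% in T1 replicate 1. The part of these cells in the level of the mitosis genes was not tested. The summed mitosis members were at 113 to 177 RPKM in T1 replicate 2 and 43.1 to 44.9 in T1 replicate 1, and at 53.6 to 68.2 in T2 and 38.7 to 52.3 in FO libraries.

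The step from T1 to T2, the first within the spleen, was compared in each genotype. E2f2, an E2F factor known in mouse lymphocytes to hold back proliferation genes, was the one member called in either genotype: 1 of 43 in KO cells and 1 of 43 in WT cells, beside 4.37% and 4.24% of all tested genes called in either direction and 2.60% and 2.17% called lower. It was at 34.8 and 25.1 RPKM in KO T2 and 73.4 and 57.7 in KO T1 libraries, and at 30.9 and 26.3 RPKM in the WT T2 libraries, against 62.8 and 57.0 in the WT T1 ones. Every T2 library lay under every T1 library. The log2 difference of T2 over T1 cells was -1.12 ± 0.16 in KO (SE, adjusted p = 0.00174) and -1.06 ± 0.16 in WT cells (adjusted p = 0.00268). E2f1, the classical activator of S phase genes, was the other member whose T1 and T2 libraries did not overlap, at 2.43 and 2.35 RPKM in KO T2 and 3.41 and 5.29 in KO T1, and at 2.50 and 3.07 in the WT T2 libraries, against 4.02 and 4.61 in the WT T1 ones. Its difference was -0.72 in KO (adjusted p = 0.0298, under the fold asked for) and -0.55 in WT cells (adjusted p = 0.0792). These 2 of 43 members were lower in every T2 than in every T1 library, beside 9.56% of all tested genes. The call of E2f2 was lost without T2 replicate 2 of its genotype, at -0.89 in KO and -0.94 in WT cells, and without T1 replicate 1, at -0.95 and -0.99. It was also lost with only the 4 libraries of the T1 and T2 groups compared in the fit (adjusted p = 0.194 in KO and 0.141 in WT).

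For most other members the T1 libraries lay on both sides of the T2 libraries, 29 of the 43 in KO and 26 of the 43 in WT cells. Beside E2f1 and E2f2, both T1 libraries were above both T2 libraries for Bub1b and Prc1 in KO and for Chek1 and Plk1 in WT cells, and below them for Mcm4, Pcna and Aurka in WT cells. The remaining 10 in each genotype overlapped in part. Mki67 was at 2.59 and 3.72 RPKM in KO T2 and at 3.41 and 4.74 in WT T2 libraries, far under T1 replicate 2 of either genotype, and the log2 difference was -1.35 ± 0.97 in KO (adjusted p = 0.432) and -0.19 ± 0.97 in WT cells (adjusted p = 0.928). Mcm6, the helicase subunit whose E2F motif is shown above, was at 20.0 and 19.3 RPKM in KO T2 and 12.1 and 29.3 in KO T1 libraries, and at 19.6 and 19.8 in the WT T2 libraries, against 9.07 and 21.0 in the WT T1 ones. Its T2 libraries were close together, and T1 replicate 1 lay under them and T1 replicate 2 above them in both genotypes. Birc5 was at 0.171 and 0.753 RPKM in KO T2 and 0.421 and 4.44 in KO T1 libraries, and at 0.326 and 0.324 in the WT T2 libraries, against 0.164 and 1.92 in the WT T1 ones. The median over the 43 members was -0.43 in KO cells and -0.03 in WT cells, beside 0.08 and 0.07 over all tested genes. With the T1 replicate 1 libraries left out, 25 members were called lower in T2 in KO cells and 7 in WT cells (Rrm2, Ccna2, Bub1, Bub1b, Kif11, Mki67 and Top2a), beside 4.35% and 3.97% of all genes then tested, and 0 were called higher in either, beside 1.48% and 1.70%. E2f2 then fell short of the fold at -0.95 in KO and -0.99 in WT cells. With the T1 replicate 2 libraries left out instead, 0 members were called higher in KO and 6 in WT T2 cells (Ccne1, Mcm6, Cenpe, Kif11, Mki67 and Top2a), beside 2.95% and 3.15% of all genes then tested, and E2f2 was called lower at -1.30 in KO and -1.13 in WT cells, beside 3.19% and 2.58%. Kif11, Mki67 and Top2a in WT cells thus stood on opposite sides of 0 with one or the other library of T1: Mki67 at -1.75 without replicate 1 and 1.37 without replicate 2. In these fits each T1 group had 1 library, which was taken to vary like the other groups. The shares of all genes given beside them also count genes that passed the filter only through the T1 libraries kept. The same holds for such fits from T1 to FO cells below. Leaving aside the 8 members that passed the filter only through the T1 replicate 2 libraries, of the other 35 members 17 in KO and 6 in WT cells were called lower without T1 replicate 1.

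T2 cells are the branch point to the MZ and FO fates, and the step to MZ cells was the larger of the 2 over all genes. In each genotype 3 of 43 members were called between MZ and T2 cells, Tk1 higher and E2f2 and Cenpa lower, beside 9.44% of all tested genes in KO and 10.6% in WT cells. Of all tested genes 5.92% in KO and 6.44% in WT cells were called higher, and 3.52% in KO and 4.13% in WT cells lower. Tk1, the thymidine kinase that salvages thymidine for DNA synthesis, was at 17.8 and 15.8 RPKM in KO MZ and 5.75 and 6.53 in KO T2 libraries, and at 15.9 and 17.3 in the WT MZ libraries, against 5.26 and 7.98 in the WT T2 ones. All 4 MZ libraries were higher than all libraries of the other subsets. The log2 difference of MZ over T2 cells was 1.38 ± 0.26 in KO (adjusted p = 0.00277) and 1.29 ± 0.26 in WT cells (adjusted p = 0.00367). Tyms, at a much lower level, had a like ratio of mean RPKM, 2.41-fold in KO and 2.66-fold in WT cells, beside 2.73- and 2.51-fold for Tk1. It was at 0.778 and 1.24 RPKM in KO MZ and 0.232 and 0.608 in KO T2 libraries, at 0.880 and 1.15 in the WT MZ libraries, against 0.328 and 0.434 in the WT T2 ones, and its log2 difference, which the added 0.5 RPKM makes smaller, was 0.73 in KO and 0.78 in WT cells and did not pass (adjusted p = 0.348 and 0.294).

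Cenpa, the histone H3 variant that marks centromeres, was at 5.71 and 9.79 RPKM in KO MZ and 21.1 and 26.1 in KO T2 libraries, and at 7.95 and 8.64 in the WT MZ libraries, against 22.1 and 26.8 in the WT T2 ones. The MZ libraries were the 4 lowest of the 16. The log2 difference was -1.58 ± 0.25 in KO (adjusted p = 0.000944) and -1.50 ± 0.25 in WT cells (adjusted p = 0.00120). Cenpa was apart from the other mitosis genes in its level too, since it averaged 24 ± 2.85 RPKM in T2 libraries (SD, n = 4), where the 23 others lay no higher than 4.74 RPKM. The kinetochore members Cenpe and Cenpf were at 1.13 and 1.38 RPKM and at 0.378 and 0.656 RPKM in KO MZ libraries, and were not called in either genotype.

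E2f2 was at 11 and 12.6 RPKM in KO MZ and at 10.5 and 9.97 in WT MZ libraries, under every T2 library given above. The log2 difference of MZ over T2 cells was -1.30 ± 0.16 in KO (adjusted p = 0.000198) and -1.44 ± 0.16 in WT cells (adjusted p = 9.42e-05). Over the 4 libraries of a subset E2f2 averaged 62.7 ± 7.61 RPKM for T1, 29.3 ± 4.47 for T2, 11 ± 1.13 for MZ and 16 ± 1.06 for FO cells (SD, n = 4). From high to low the order was T1, T2, FO and MZ, and no neighbours in it overlapped. E2f1 went another way: it averaged 4.33 ± 0.806 RPKM for T1, 2.59 ± 0.330 for T2, 4.51 ± 0.303 for MZ and 1.90 ± 0.422 for FO cells (SD, n = 4), where the MZ and T1 libraries overlapped and the FO and T2 libraries overlapped. E2f1 was at 4.16 and 4.89 RPKM in KO MZ and at 4.56 and 4.43 in WT MZ libraries, all above the T2 libraries, and its log2 difference of MZ over T2 was 0.79 in KO (adjusted p = 0.00955) and 0.61 in WT cells (adjusted p = 0.0304), under the fold asked for.

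**Figure D3:**
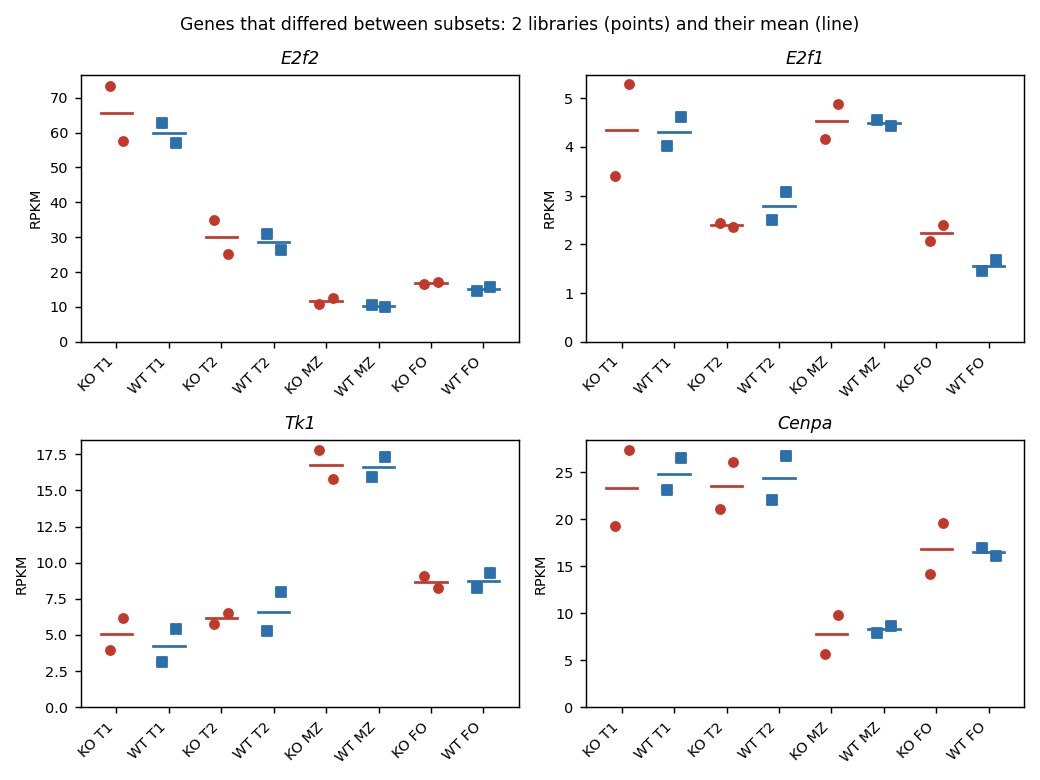
Level in RPKM of E2f2, E2f1, Tk1 and Cenpa in each library, with KO as red circles, WT as blue squares and a line at the mean of the 2 libraries of a group. E2f2 steps down over T1, T2 and MZ, Tk1 stands at 15.8 to 17.8 in the 4 MZ libraries, and Cenpa is lowest there at 5.71 to 9.79.

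None of the tested licensing genes was called in the step to MZ cells. Cdt1, which brings the MCM helicase to origins, was at 14.1 and 20.6 RPKM in KO MZ and 25.3 and 40.8 in KO T2 libraries, and at 24.9 and 22.1 in the WT MZ libraries, against 27.9 and 37.8 in the WT T2 ones. The 4 MZ libraries lay under the 4 T2 libraries, by -0.89 on the log2 scale in KO (adjusted p = 0.0294, under the fold asked for) and -0.46 in WT cells (adjusted p = 0.216). Pcna also lay lower in every MZ than in every T2 library, at 24 and 40.0 RPKM in KO MZ and 45.2 and 62.2 in KO T2, and 37.6 and 35.5 in the WT MZ libraries against 61.8 and 50.3 in the WT T2 ones, with adjusted p = 0.12 in KO and 0.198 in WT cells. In all, 4 members (E2f1, Cdc6, Tyms and Tk1) were higher in every MZ than in every T2 library, beside 22.5% of all tested genes, and 6 (E2f2, Cdt1, Pcna, Rrm1, Foxm1 and Cenpa) were lower, beside 19.8%. The median over the members was 0.14 in KO and -0.10 in WT cells. Whether the step to MZ cells differed between KO and WT was tested by the interaction, and 0 of 43 members were called, beside 0.00800% of all tested genes, with 0 members at an unadjusted p under 0.05 (1.66% of all tested genes). The same test for the step to T2 cells called 0 members, beside 0% of all tested genes, also with 0 at an unadjusted p under 0.05 (2.21% of all tested genes). The spread between the T1 replicates enters the SE of both interactions, so these shares cannot show that the members were more alike between genotypes than other genes.

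Between the mature fates, with both genotypes averaged, 3 of 43 members were called, beside 9.20% of all tested genes: E2f1 and Nusap1 higher and Cenpa lower in MZ than in FO cells (5.79% of all tested genes were called higher and 3.41% lower). E2f1, at the MZ values above, was at 2.07 and 2.41 RPKM in KO FO and at 1.45 and 1.68 in WT FO libraries, and its log2 difference of MZ over FO was 1.07 ± 0.13 (adjusted p = 8.58e-05). It fell short of the fold at 0.93 with a pseudocount of 1 and at 0.87 with quantile normalization. Nusap1 was at 3.38 and 3.42 RPKM in KO MZ and 1.38 and 1.4 in KO FO libraries, and at 2.30 and 3.13 in the WT MZ libraries, against 0.635 and 0.914 in the WT FO ones, without overlap. Its log2 difference was 1.19 ± 0.37 (adjusted p = 0.0265), and the call was lost without any one of 6 of the MZ and FO libraries, with an adjusted p of 0.0599 to 0.0844, with no filter on low values (adjusted p = 0.0563), and under the fold asked for at 0.97 with either a pseudocount of 1 or quantile normalization. Cenpa was at 14.2 and 19.6 RPKM in KO FO and at 16.9 and 16.1 in WT FO libraries, and its log2 difference was -1.03 ± 0.17 (adjusted p = 0.000894), falling short of the fold at -0.85 without KO MZ replicate 1, -0.9997 without WT MZ replicate 1, -0.91 without KO FO replicate 2 and -0.99 with a pseudocount of 1.

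Further members differed between MZ and FO cells at an adjusted p under 0.05 but under the fold asked for, 2 licensing genes and E2f2 lower and Tk1, Aurkb and Prc1 higher in MZ cells. Mcm5 was at 9.0 and 14 RPKM in KO MZ and 21.6 and 19.6 in KO FO libraries, and at 9.67 and 11.7 in the WT MZ libraries, against 21.2 and 18.2 in the WT FO ones, a log2 difference of -0.85 ± 0.27 (adjusted p = 0.0297). Cdt1 differed by -0.79 (adjusted p = 0.00665), with 31.6 and 35.6 RPKM in KO FO and 42.6 and 30.8 in WT FO libraries, and E2f2 by -0.52 (adjusted p = 0.0039). Tk1 was at 9.11 and 8.27 RPKM in KO FO and 8.22 and 9.29 in WT FO libraries and differed by 0.90 (adjusted p = 0.0027). Aurkb and Prc1 differed by 0.58 and 0.66 (adjusted p = 0.0465 and 0.0486). Without overlap, 9 members were higher in MZ cells (Ccne2, E2f1, Tyms, Tk1, Ccnb1, Aurkb, Kif20a, Nusap1 and Prc1), beside 25.3% of all tested genes, and 5 were lower (E2f2, Cdt1, Mcm2, Mcm5 and Cenpa), beside 21.7%. The median log2 difference was 0.43 over the 24 mitosis genes and -0.14 over the 19 tested DNA synthesis genes, beside 0.04 over all tested genes. Mki67 was at 4.79 and 6.90 RPKM in KO MZ and 3.48 and 5.79 in WT MZ libraries, against 3.82 and 3.28 in KO FO and 1.31 and 1.36 in WT FO libraries. Its log2 difference of 1.04 had a SE of 0.68 and did not pass with all libraries (adjusted p = 0.268), and in a fit without the T1 libraries, chosen after the data were seen, the SE was 0.19 and the adjusted p 0.00229.

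**Figure D4:**
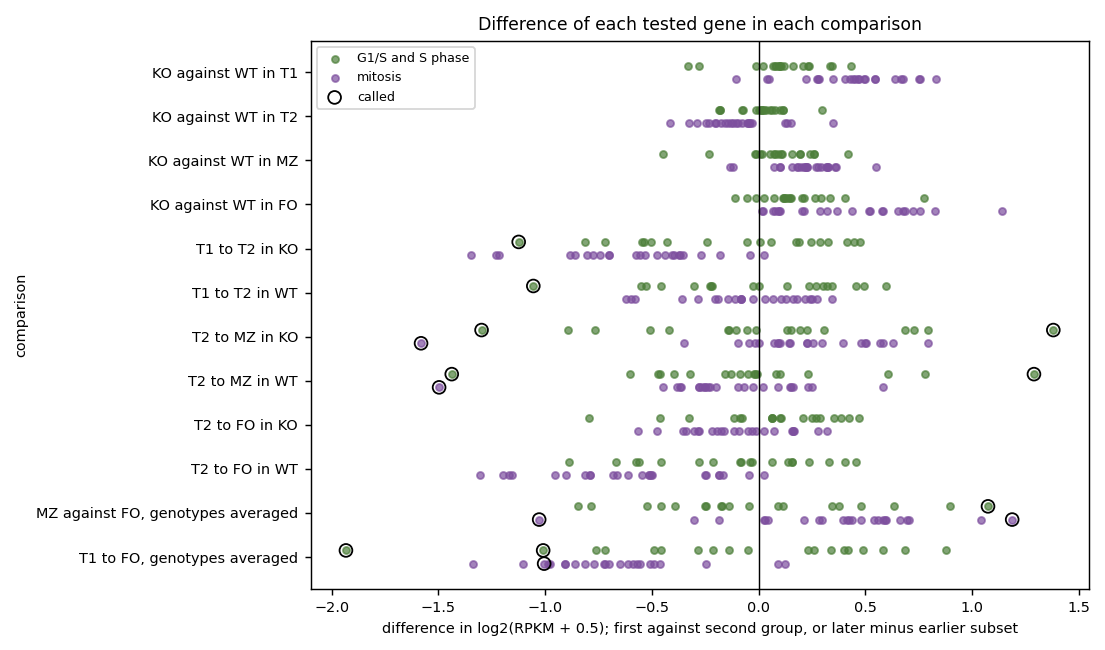
Difference of each tested gene in log2(RPKM + 0.5) for each comparison, with DNA synthesis genes in green above, mitosis genes in purple below and called genes ringed in black. For KO against WT no gene is ringed, and in FO cells all 24 mitosis genes lie right of 0.

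The step from T2 to FO cells called 0 of 43 members in either genotype, beside 0% of all tested genes in KO and 0.184% in WT cells, with 0 by limma-voom. At an unadjusted p under 0.05 there were 1 member in KO and 4 in WT cells, beside 12% and 20.9% of all tested genes. The T1 replicates, which lay far apart for most mitosis genes, enter the SE of this comparison too. These shares therefore cannot show that the members changed less than other genes. E2f2 was at 16.6 and 17.0 RPKM in KO FO and 14.6 and 15.7 in WT FO libraries, under every T2 library, and its log2 difference in KO cells was -0.80 ± 0.16 (adjusted p = 0.216). Kif11 was at 1.14 and 1.05 RPKM in KO FO and 1.14 and 1.98 in KO T2 libraries, and at 0.425 and 0.610 in the WT FO libraries, against 1.71 and 1.95 in the WT T2 ones. The log2 difference was -0.34 in KO (adjusted p = 0.909) and -1.20 in WT cells (adjusted p = 0.513), where both FO libraries were lower. Over the 4 libraries of each subset, 5 tested members (Mcm2, Mcm5, Mcm6, Mcm7 and Tk1) were higher in every FO than in every T2 library. That is near the share over all tested genes, 13.0%. Gins2, which was not tested, was also higher. In the other direction 12 were lower (E2f2, Pcna, Rrm1 and the mitosis genes Ccnb1, Aurkb, Foxm1, Bub1, Cenpa, Cenpe, Cenpf, Nusap1 and Prc1), beside 13.4%.

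From T1 to FO cells, genotypes averaged, E2f2, E2f1 and Bub1b were called lower, 3 of 43 members beside 9.50% of all tested genes called in either direction and 5.21% called lower. The log2 difference of FO over T1 cells was -1.93 ± 0.11 for E2f2 (adjusted p = 9.83e-07) and -1.01 ± 0.13 for E2f1 (adjusted p = 0.000152). Bub1b, a kinase-like checkpoint protein that holds anaphase until chromosomes are attached, was at 2.1 and 1.69 RPKM in KO FO and 3.25 and 8.05 in KO T1 libraries, and at 1.65 and 2.08 in the WT FO libraries, against 2.11 and 5.65 in the WT T1 ones. All 4 FO libraries lay under all 4 T1 libraries, by -1.005 ± 0.29 (adjusted p = 0.0171), but by -0.40 with the T1 replicate 2 libraries left out (adjusted p = 0.0763). The call was also lost without any one of KO T1 replicate 2, WT T1 replicate 2, KO FO replicate 2 and WT FO replicate 1 (adjusted p = 0.0541 to 0.0568), with only the T1 and FO libraries in the fit (adjusted p = 0.0751), and at -0.89 with a pseudocount of 1. With the T1 replicate 1 libraries left out, 25 members were called lower in FO cells, beside 6.46% of all genes then tested, and 0 higher, beside 3.54%. Of the 25, 8 were the members that passed the filter only through the T1 replicate 2 libraries, and 17 were among the other 35. With T1 replicate 2 left out, 1 was called lower (E2f2), beside 5.24%, and 4 higher (Mcm5, Mcm6, Tk1 and Stmn1), beside 5.85%. E2f1, at -0.82, then fell short of the fold, as it did at -0.88 with a pseudocount of 1 and at -0.87 to -0.97 without any one of KO T1 replicate 2, WT T1 replicate 2, KO FO replicate 1 and WT FO replicate 1. Tk1, with 3.94 and 6.15 RPKM in KO T1 and 3.10 and 5.42 in WT T1 libraries, and Mcm4 were the 2 members higher in every FO than in every T1 library, beside 26.6% of all tested genes. In the other direction Ccne2 (cyclin E2), E2f1, E2f2, Aurkb, Bub1b and Prc1 were lower in every FO library, 6 members beside 16.7%.

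KO and WT cells were compared within each subset, since miR-146a was absent from all KO cells. No member was called: 0 of 43 in T1, T2, MZ and FO cells and across the 4 subsets, beside 0.0400%, 0.0480%, 0.0640%, 0.0320% and 0.0720% of all tested genes, with 0 called by limma-voom. Within the subsets 0 members had an unadjusted p under 0.05, where 3.51% (T1), 3.37% (T2), 1.65% (MZ) and 0.919% (FO) of all tested genes did. Here too the spread between the T1 replicates enters the SE in every subset, as taken up below. In T1 cells, where the 2 libraries of a genotype differed so much, 0 members were higher in both KO than in both WT libraries, beside 10.7% of all tested genes, and 1, Cdt1, was lower, at 20.7 and 26.4 RPKM in KO against 32.4 and 27.0 in WT T1 libraries, beside 10.8%. The largest log2 differences in T1 cells were those of Mki67 at 0.83 ± 0.97 and Tpx2 at 0.76 ± 0.74, whose T1 pairs overlapped between genotypes: Tpx2 was at 0.383 and 4.96 RPKM in KO and 0.170 and 2.01 in WT T1 libraries. In T2 cells 1 tested member was higher (Plk1), beside 12.7%, and 4 lower (E2f1, Cenpe, Cenpf and Prc1), beside 9.75%. Gins2, which was not tested, was also higher. Plk1 was at 1.06 and 1.29 RPKM in KO and 0.706 and 0.933 in WT T2 libraries, and Cenpf at 0.403 and 0.520 in KO against 0.753 and 0.808 in WT T2 libraries. Ccne1 (cyclin E1) was at 7.82 and 5.59 RPKM in KO and 4.71 and 5.93 in WT T2 libraries and overlapped. In MZ cells 7 were higher (E2f2, Mcm6, Rrm1, Dut, Bub1b, Nusap1 and Prc1), beside 17.6%, and 2 lower (Cdt1 and Ccnb1), beside 11.7%. The largest log2 difference in MZ cells was that of Ccna2 at 0.55 ± 0.89, with 1.46 and 1.78 RPKM in KO and 0.551 and 1.48 in WT libraries. The median over the members was 0.28 in T1, -0.05 in T2 and 0.19 in MZ cells, beside 0.00, 0.01 and 0.03 over all tested genes.

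FO cells were the subset in which the members stood apart by genotype in the most cases. Both KO libraries were higher than both WT libraries for 30 of the 44 members (12 DNA synthesis and 18 mitosis genes), beside 17.0% of all tested genes, and lower for 0, beside 10.2%. Of the 43 tested members 40 had a difference above 0, and all 24 mitosis genes did, against 57.8% of all tested genes. The median was 0.40 over mitosis genes and 0.14 over DNA synthesis genes, beside 0.02 over all tested genes. Genes of one program are not independent of each other, so these counts describe the 4 libraries and are no test of the genotype. Mki67, at 3.82 and 3.28 RPKM in KO FO and 1.31 and 1.36 in WT FO libraries as above, had the largest difference, 1.14 ± 0.97 on the log2 scale (adjusted p = 1).

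Cdk1 was at 0.533 and 0.750 RPKM in KO FO and 0.110 and 0.173 in WT FO libraries, on 41 and 64 reads in KO and 10 and 14 in WT. Ccna2 was at 1.25 and 1.1 RPKM in KO FO and 0.486 and 0.498 in WT FO libraries, Rrm2 at 3.25 and 3.0 against 1.46 and 1.78, and Top2a at 2.68 and 2.46 against 1.37 and 1.44. For each of these genes both KO libraries were above both WT libraries by more than the KO libraries differed from each other. Cdc20 was at 3.52 and 2.89 RPKM in KO FO and 1.87 and 1.62 in WT FO libraries, and Birc5 at 0.737 and 0.498 against 0.201 and 0.188. Of the licensing and helicase genes, Cdc6, Mcm2, Mcm4, Mcm6 and Mcm7 were higher in both KO libraries, with log2 differences of 0.11 to 0.29, while Mcm3, Mcm5, Cdt1 and Gins2 overlapped. Mcm6 was at 24.5 and 23.8 RPKM in KO FO and 20.6 and 22.8 in WT FO libraries, and Mcm5 at 21.6 and 19.6 against 21.2 and 18.2. Cdt1 was at 31.6 and 35.6 RPKM in KO FO against 42.6 and 30.8 in WT FO libraries. Among the nucleotide supply genes Tk1 overlapped, at 9.11 and 8.27 RPKM in KO FO against 8.22 and 9.29 in WT FO libraries. Cenpa and Ccne2 (0.755 and 1.15 RPKM in KO FO against 1.11 and 0.891 in WT FO libraries) also overlapped.

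The 16 libraries share one estimate of the spread of a gene, and the T1 replicates, which lie far apart, enter it. In the fit without the T1 libraries, chosen after the data were seen, 12238 genes and 35 members were tested, the SE of Mki67 in FO cells was 0.27 and its unadjusted p 0.00223, and 10 of the 35 members had an unadjusted p under 0.05 (E2f1, Rrm1, Rrm2, Ccna2, Cdc20, Kif11, Tpx2, Nusap1, Mki67 and Top2a), beside 1.52% of all genes tested there. None was called after adjustment over all genes (adjusted p = 1 for each of the 10). In T2 cells 0 members and in MZ cells 3 members had an unadjusted p under 0.05 in that fit, beside 4.29% and 2.44% of all genes.

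**Figure D5:**
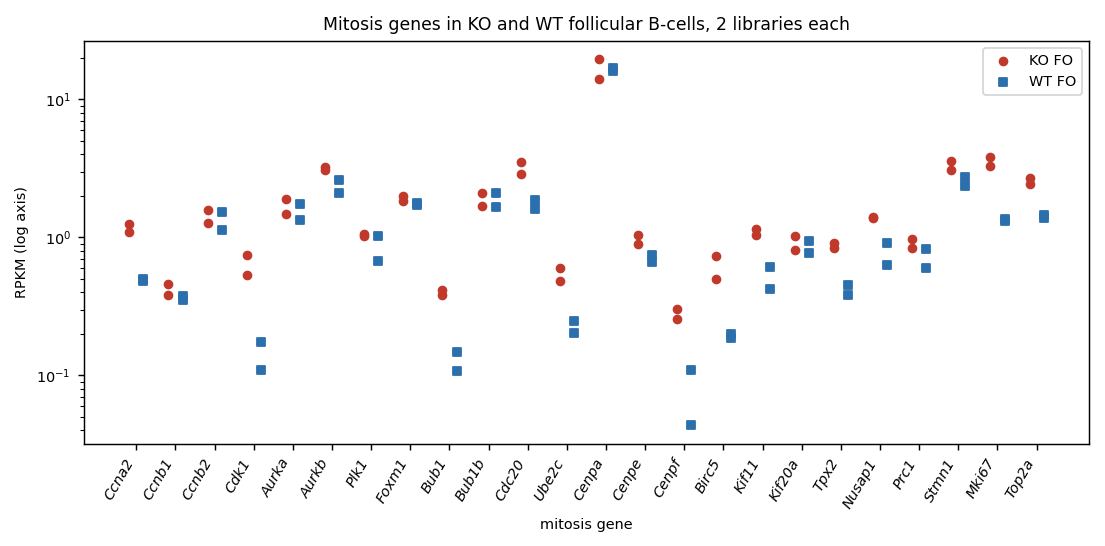
Level in RPKM, on a log axis, of the 24 mitosis genes in the 2 KO FO libraries (red circles) and the 2 WT FO libraries (blue squares). For 18 of the genes both KO points lie above both WT points, Mki67 at 3.28 to 3.82 against 1.31 to 1.36 among them.

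Several transcripts of germinal center B-cells, which divide fast, moved with the FO difference. Gcsam was at 0.43 and 0.46 RPKM in KO FO and 0.06 and 0.05 in WT FO libraries, S1pr2 at 2.02 and 1.03 against 0.83 and 0.48, Mybl1 at 1.96 and 1.38 against 0.74 and 0.87, and Rgs13 at 2.13 and 2.56 against 1.48 and 1.17. Fas was at 4.02 and 2.91 RPKM in KO FO against 2.38 and 2.65 in WT FO libraries, and Bcl6, the master factor of these cells, was lower in KO at 22.6 and 21.0 against 25.3 and 24.1. The summed list ran over 29.3 to 33.1 RPKM in KO FO and 29.3 to 30.8 in WT FO libraries, with Bcl6 as most of it. The part of germinal center cells in the levels of the mitosis genes in FO libraries was not tested.

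miR-146a acts by pairing of its seed with sites in messages. The mature strand, mmu-miR-146a-5p, is encoded on chr11:43374435-43374456 (minus strand of GRCm38.p6, RefSeq), and its seed, bases 2 to 8, is in capitals here. Of the sites counted below, AGTTCTC is the complement of these bases. GTTCTCA is the complement of bases 2 to 7 and of the base before them.
mmu-miR-146a-5p: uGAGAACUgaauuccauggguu
A site (AGTTCTC or GTTCTCA) stood in an annotated 3′ UTR of 7 of the 44 members (15.9%), against 2537 of the 10286 tested genes with an annotated 3′ UTR (24.7%). The 7 were Birc5, Ccna2, Cdk1, Chek1, Gins2, Rrm1 and Ube2c. Mki67, the member with the largest difference in FO cells, held none. Their presence is a match of letters and says nothing of regulation.

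The other genes of the program, from lists of textbook genes, were counted in the same way. Of 46 other mitosis genes tested, 0 were called between KO and WT in any subset, and in FO cells 42 of 46 had a difference above 0 with a median of 0.25. Of 41 other replication genes 36 did (median 0.11), and of 20 CDK inhibitors, pocket proteins, E2F and DREAM subunits 14 did (median 0.03). Between the T1 replicates 44 of the 46 other mitosis genes, 30 of the 41 replication genes and 8 of the 20 regulators were higher in replicate 2 in both genotypes. The shares of all tested genes for the FO difference and for the T1 replicates are given above with the members. From T1 to FO cells 6 of the 46 mitosis genes were called lower, among them Kif22 at -1.21 and Nek2 at -1.17. Of all tested genes 5.21% were called lower. The whole list of other mitosis genes summed to 347 to 446 RPKM in T1 replicate 2, 245 to 246 in T1 replicate 1 and 228 to 262 in FO libraries.

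In the step from T2 to MZ cells 4 of the 20 regulators were called in KO and 3 in WT cells, 2 of the 46 other mitosis genes in each genotype and 1 of the 41 other replication genes in each, beside the 9.44% and 10.6% of all tested genes given above. Cdc25b, the phosphatase that activates Cdk1, was lower in MZ than in T2 cells by -1.88 in KO and -1.84 in WT cells, and Ndc80, of the kinetochore, by -1.06 and -1.07. Pold1, the catalytic subunit of DNA polymerase delta, was lower by -1.48 in KO and -1.29 in WT cells. Cdkn2d (p19), an inhibitor of the G1 kinases, was lower by -2.23 in KO and -2.10 in WT cells, and Cdkn1a (p21), an inhibitor of CDKs and of Pcna, by -1.25 and -1.45. Mybl2 (B-Myb), which turns the DREAM core into an activator of mitosis genes, was higher by 1.24 in KO and 1.26 in WT cells. Tfdp1, the dimer partner of E2F factors, was called higher in KO cells at 1.2, while its difference in WT cells was 1.01 (adjusted p = 0.0752). Cdc25b, Pold1 and Cdkn2d were also lower in MZ than in FO cells, at -1.94, -1.77 and -2.23, and Mybl2 and Tfdp1 higher, at 1.01 and 1.23.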

How the data were processed

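RNA of 16 libraries was analysed, 2 for each of 4 sorted B-cell subsets in KO and WT mice; the study calls the 2 libraries biological replicates. The deposited values are RPKM per gene, which the authors made by aligning single-end reads with TopHat to mm10 (GRCm38) and counting on genes; the submitters' processing notes also name DESeq and edgeR. The depth of each library (9003343 to 26386684 reads) was recovered from the most frequent low products of RPKM and gene length, taken as 1 read. At these depths 13395 of the 23194 genes above 0 gave whole reads (within 0.01) at their annotated length. For the other 9799 genes a length was searched for that gave whole reads, so these are no check of the depths.

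Genes with a mean RPKM above 1 in at least 1 of the 8 groups were kept (12507). log2(RPKM + 0.5) was fitted with limma 3.58.1 (R 4.3.3, variance trend) in 1 model of all 8 groups, with Benjamini-Hochberg adjustment over all genes, with calls made at an adjusted p under 0.05, a log2 difference beyond 1 (not asked of interactions) and a mean RPKM above 1 in a compared group. The fit was tested on simulated data. Python 3.11.15, numpy 2.4.6, pandas 2.3.3 and matplotlib 3.10.9 made the remaining values and plots.

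The 44 genes, the other gene lists and the markers were chosen with earlier results of these data known. All 44 are named; values per library are given for called members with the largest change and, to make up 2 in a direction, for those with the largest difference, and further ones were chosen after their values were seen. Replicate numbers were not used as pairs. Alternatives were other pseudocounts, no filter, other scalings, a replicate block, fewer groups, no fold criterion and each library left out, and, chosen after the data were seen, limma-voom on recovered reads, a replicate block within each genotype and fits without T1 libraries. A planned test of counts was not run, because the values are RPKM. Only symbols and gene IDs as deposited were used, with 3′ UTRs from GENCODE M21 and promoters and the miRNA from RefSeq. One marker gene is not reported here.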

Additional observations from a re-analysis of the deposited data

How the results depend on the processing

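No called member changed direction under any alternative run, while uncalled ones such as Mki67 from T1 to T2 in WT cells did with 1 or the other T1 replicate left out. Between KO and WT, and in both interactions, 0 members were called under every alternative. T2 to MZ gave 3 calls in KO and 3 in WT cells, 5 in KO without the fold criterion, and 3 to 4 in KO and 3 in WT cells with a library left out. T1 to T2 gave 1 call in each genotype, but 0 in each with only the groups compared (E2f2 adjusted p = 0.194 in KO and 0.141 in WT) and 2 in KO without the fold criterion. With 1 library left out T1 to T2 ranged from 0 to 5 calls in KO and 0 to 1 in WT cells, and with a T1 replicate left out in both genotypes from 1 to 25 in KO and 7 in WT. T2 to FO in WT cells ranged from 0 to 1. MZ against FO gave 3 calls, 0 with a pseudocount of 1, 1 with quantile normalization, 9 without the fold criterion, 1 to 3 with a library left out (1 without KO MZ replicate 1 or KO FO replicate 2) and 4 without the T1 libraries. T1 to FO gave 3 calls, 1 with a pseudocount of 1, 5 with a pseudocount of 0.1, median-ratio scaling or quantile normalization, 6 with limma-voom, 10 without the fold criterion, 1 to 19 with 1 library left out (19 without KO T1 replicate 1, 8 without WT T1 replicate 1, 1 without WT FO replicate 1) and 5 to 25 with a T1 replicate left out in both genotypes. With the replicate number as a block, T2 to MZ kept a count of 3 in each genotype and no other count changed; same-numbered KO and WT libraries deviated together in T1 (r = 0.30) and T2 (0.16) but not in MZ (-0.23) or FO (-0.16), and libraries of 1 genotype with the same number deviated together across subsets (r = 0.19 to 0.44 in KO and 0.076 to 0.45 in WT cells). No source used here says what a number shares, so the numbers were not taken as pairs, and with a replicate block within each genotype, chosen after the data were seen, every count of calls was the same (3 for MZ against FO and for T1 to FO). The cause of these changes was not tested. Values under about 1 RPKM rest on few reads (Cdk1 on 5 to 171), which limits what can be said of them.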
